A study of Spinacia oleracea with 6 samples.

Results

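Gene models that the authors of a spinach heat study added to the genome annotation, and that were well expressed, are described here by their structure, their levels and their response to heat. They were chosen by level alone. Read counts were divided by median-of-ratios size factors and scaled to CPM (counts per M counts) of the mean library, and every added model with a mean of at least 20 CPM over all 6 libraries was kept. This gave 132 of 1718 added models, among 32450 genes and models in all. Spinach, Spinacia oleracea, is a leafy crop of cool seasons. The groups were 3 control libraries from plants at 20 °C in the day and 15 °C at night, and 3 heat libraries from plants at 35 °C in the day and 25 °C at night, with 4 days of treatment in an illumination incubator. The labels name no tissue, cultivar or plant age. They also do not state separate plants for the libraries of a group, so the p-values reflect the spread among these 6 libraries, and that spread may be technical. Libraries held 42.3 to 56.8 M counts, and 1 read was worth 0.0179 to 0.0262 CPM.

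A gene annotation lists where transcripts start, end and are spliced, and aligned RNA reads that fall outside it can be assembled into further models. Such models can be protein-coding genes that the annotation missed, long RNAs without a protein, or pieces and extensions of annotated genes. In plants, a transcript can keep an intron that another transcript of the same gene lacks, a form of alternative splicing called intron retention. The deposited files pair the added models with exons, transcripts and strands but with no gene name, product or sequence, so no role is given to any of them, and no bases are shown. Positions are those of the authors' exon file, on scaffolds of a genome build that is not named in the sources used here. Whether a model touches an annotated gene was not analysed here.

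Beside the other added models, the well-expressed ones held larger shares of long models with many exons. A transcript with 10 or more exons was present in 19 of 132 (14.4%), against 24 of 1586 added models below 20 CPM (1.51%). Models with at most 2 exons made up 52 of the 132, of which 4 had a single exon, while of the other added models 60.5% had 2 exons and 3.22% had 1. Several transcripts were listed for 93 of 132 well-expressed models (70.5%) and for 42.7% of the others. The median exonic length, with all transcripts of a model merged, was 2086 bp against 1281 bp. An intron that lay wholly inside an exon of another transcript of the same model, called a covered intron below, occurred in 55 of 132 (41.7%) and in 16.8% of the others. These are descriptions, since read number and assembly may move together, and the part of read number was not tested.

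**Figure D1:**
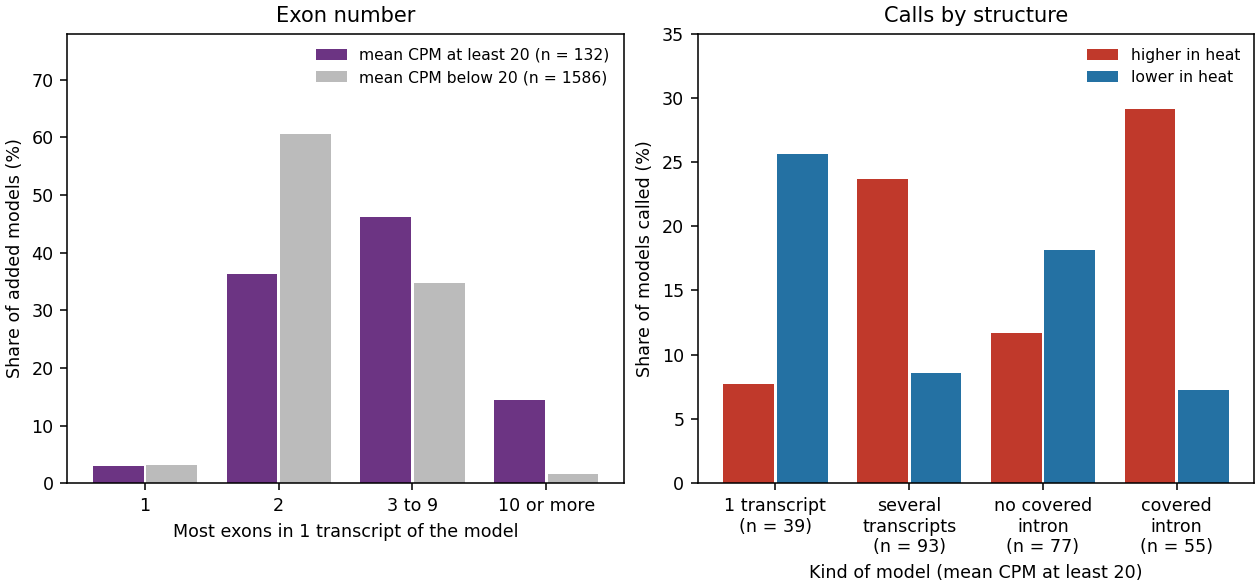
Left, share of added models (%) by the most exons in 1 transcript, for 132 models of at least 20 CPM and 1586 below. Right, share of the 132 models called higher or lower in heat (%) by number of transcripts and by covered introns. Of models with several transcripts 23.7% were higher and 8.60% lower, and of those with 1 transcript 7.69% and 25.6%. All models with 1 transcript are also among those with no covered intron.

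The 132 models lay on 123 scaffolds, with 66 on each strand, and held 435 transcripts. For 59 of them no other added model lay on the same scaffold, and for 12 another added model lay within 10 kb. In 2 cases the spans overlapped. Novel01116, on the minus strand, shared 829 exonic bp with Novel01114 on the plus strand, so its reads can be told from those of its partner only where the counting used strand, which is not stated. Novel00932 and Novel00933 overlapped on the same strand by 444 bp without a shared exonic base. The 717 introns of 128 spliced models had a median of 372 bp and ran from 21 to 31219 bp. The 31219 bp intron belongs to Novel01078, which has exons of 566 and 359 bp on scaffold NW_018932882.1 between 189535 and 221678. Both Novel00160, with introns of 21 bp, and Novel00419, with one of 44 bp, had no intron as long as 50 bp.

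Some exon ends of the models were very short. An exon under 10 bp occurred in 17 of 132 well-expressed models (12.9%) and in 56 of 1586 others (3.53%). One is the last exon of the most abundant model, Novel00033, which spans only 2 bp, and Novel00914 has one of 1 bp at the start of a transcript. How the models were assembled is not given, so exon borders are reported as the authors deposited them.

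By mean level, 89 of the 132 models lay between 20 and 50 CPM, 29 between 50 and 100, and 14 at 100 or more. The 3 models just inside the limit were Novel00977, Novel00156 and Novel00103, with means of 20.3, 20.4 and 20.6 CPM. Just outside were Novel00982, Novel00407 and Novel00208, with 19.98, 19.7 and 19.6 CPM. The lowest count of any model in any library was 16 reads and the highest 60166. Together the 132 models took 0.702%, 0.756% and 0.853% of the counts in control libraries 1 to 3 and 0.891%, 0.902% and 0.949% in heat libraries 1 to 3. Without the 3 models of highest mean CPM the shares were 0.544%, 0.546% and 0.548% in control and 0.764%, 0.737% and 0.827% in heat. Those 3 alone took 0.158%, 0.210% and 0.305% in control and 0.127%, 0.164% and 0.122% in heat. The counts that chose the models also make up these shares, so they are a description, with no test. They are of total counts and follow the scaling by library size, on which the median of all features was higher in heat by 0.47 (log2).

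Levels between models are compared per length, as FPKM (counts per kilobase of transcript and per M counts). The authors' FPKM rested on the mean length of a model's transcripts, which the recovered length equalled within 1 bp for all 1645 added models with a value. For models with transcripts of unequal length this length is shorter than the merged exons. The merged exons were over 1.5 times as long in 26 of the 132 models, and 3.98 times as long in Novel00037 (14731 against 3698 bp), whose FPKM would be lower by that factor on its merged exons. Mean FPKM ran from 1.75 in Novel01300, with 13368 bp the longest by this measure, to 1039 in Novel00033, with a median of 22.6. Annotated genes of at least 20 CPM had a median of 28.8 FPKM.

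Novel00033 was the most abundant model and ranked 79th of all 32450 features by mean FPKM. It lies on the plus strand of scaffold NW_018931395.1, from 1155928 to 1159901, with 4 exons of 473, 198, 120 or 121 and 2 bp in its 2 transcripts. Its level was 651, 762 and 876 CPM in control libraries 1 to 3 and 789, 1042 and 699.5 CPM in heat libraries 1 to 3. The groups overlapped, and the log2 fold change, heat minus control, was 0.15 (95% interval -0.37 to 0.66, adjusted p = 0.660). With scaling by library size alone, Novel00033 was called higher (log2 change 0.61, adjusted p = 0.0353). Novel00222, with 1 transcript of 4 exons on NW_018931470.1 from 375026 to 379004, also overlapped between groups, at 264, 206 and 174 CPM in control and 214, 280 and 177 CPM in heat (log2 change 0.06, interval -0.48 to 0.61).

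The 8 models of highest mean CPM, a level not scaled by length, went in different directions. Novel00033 and Novel00222 did not pass, nor did Novel00143, Novel00038 was higher in heat, and the other 4 were lower. Novel00311, on NW_018931520.1 from 486964 to 490501, had 587, 933 and 1577 CPM in the control libraries and 237, 249.5 and 166 CPM in the heat libraries. All control values were above all heat values, and the log2 fold change was -2.25 (SE 0.38, adjusted p = 0.00722). Novel00914, a minus-strand model with up to 10 exons on NW_018932541.1 from 153554 to 157532, went from 463, 714 and 1418 CPM to 59.4, 166 and 87.2 CPM (log2 change -3.05, SE 0.54, adjusted p = 0.00845). In both models control library 3 was highest and control library 1 lowest, and the calls held when any single library was left out. In bulk RNA, fewer cells of a kind and less RNA per cell cannot be told apart. Novel00646, of 2 exons, went from 291, 283 and 359 CPM to 86.2, 153 and 130.3 CPM (log2 change -1.34, SE 0.24, adjusted p = 0.00887). Novel01450, with up to 15 exons, fell less, from 208, 225 and 167 CPM to 125, 104 and 105 CPM (log2 change -0.85, SE 0.17, adjusted p = 0.0124), and its call ended without control library 2 (adjusted p = 0.0682), with the replicate number as a block (adjusted p = 0.0508), under library size alone (log2 change -0.40, adjusted p = 0.153) and in both limma fits of FPKM (adjusted p = 0.153).

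Over all 132 models, which all entered the test, 25 were higher and 18 lower in heat, and 89 did not pass an adjusted p of 0.05 (edgeR's quasi-likelihood test, Benjamini-Hochberg adjustment over 20145 features). The called share was 32.6%, against 25.2% of all tested features, 33.3% of annotated genes of at least 20 CPM and 17.5% of tested added models below 20 CPM. The share is thus near that of annotated genes of like level and no result about added models as such. By direction, 18.9% were higher, where all features had 11.6% and the annotated genes of at least 20 CPM 13.7%, and 13.6% were lower, where these had 13.6% and 19.6%. The median log2 fold change was 0.06, against 0.01 over all tested features and -0.02 over the annotated genes. The groups did not overlap for 57 of the 132 models (43.2%), where this held for 45.1% of all tested features and 51.4% of the annotated genes. Some models reached 20 CPM through 1 group only. The control mean was below 20 CPM in 18 models, 13 of them called higher, and the heat mean was below 20 CPM in 17, 11 of them called lower. Of the 97 models with at least 20 CPM in both groups, 12 were higher and 7 lower. The count of higher models was 8 without control library 2, 10 without heat library 1 and 14 without heat library 3. It was 54 under library size alone, which called 14 lower. Over all tested features these settings gave, in that order, 4.19%, 5.40%, 9.04% and 31.2% higher.

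**Figure D2:**
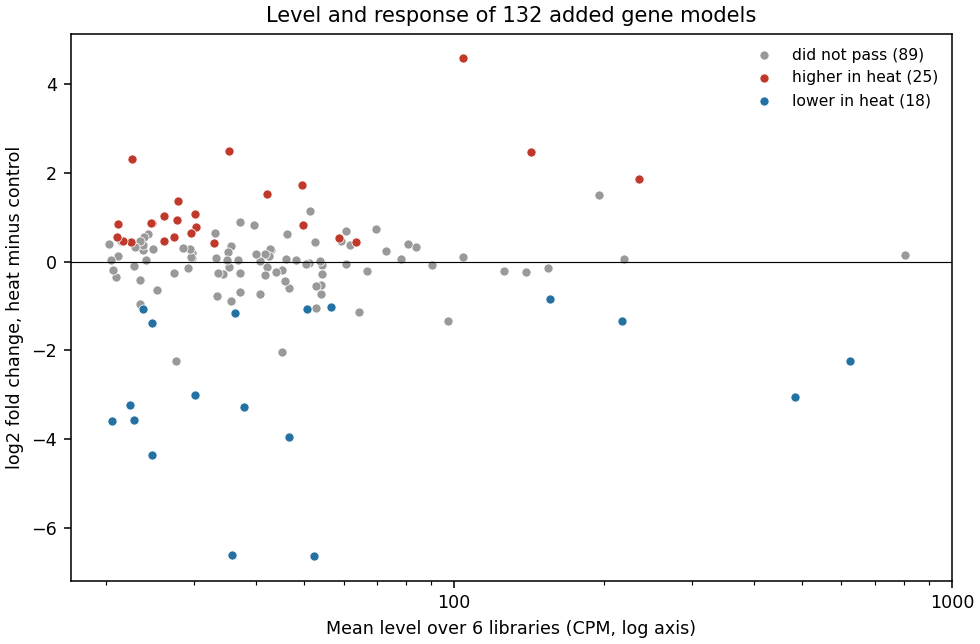
Mean level over 6 libraries (CPM, log axis) against log2 fold change, heat minus control, for each of the 132 models, coloured by the call. The 25 higher models run from 0.42 to 4.58 and the 18 lower ones from -6.62 to -0.85.

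Models could meet the level rule through 1 group, and the part of this in the size of the called changes was not tested. Among the 18 lower models 17 fell at least 2-fold and 11 at least 4-fold, with a median log2 fold change of -3.02. Among the 25 higher models 10 rose at least 2-fold and 4 at least 4-fold, with a median of 0.87. Among the 97 models with at least 20 CPM in both groups, 6 fell and 4 rose at least 2-fold, and 2 fell and 1 rose at least 4-fold. Over the whole series, 1936 of 2735 lower and 1447 of 2339 higher features changed at least 2-fold, and 789 and 682 at least 4-fold. As shares of all tested features, called or not, 9.61% fell and 7.18% rose at least 2-fold, and among the annotated genes 12.3% and 5.7%. Falls of at least 4-fold were called in 3.92% of all tested features and in 4.52% of annotated genes of at least 20 CPM, and rises of at least 4-fold in 3.39% and 2.06%. The calls of 15 lower and 8 higher models held in all 6 fits that left out 1 library. Over all tested features these fits gave 6.92% to 12.0% lower and 4.19% to 9.34% higher, where all libraries gave 13.6% and 11.6%. How many of all features kept their call in every fit is not given here.

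**Figure D3:**
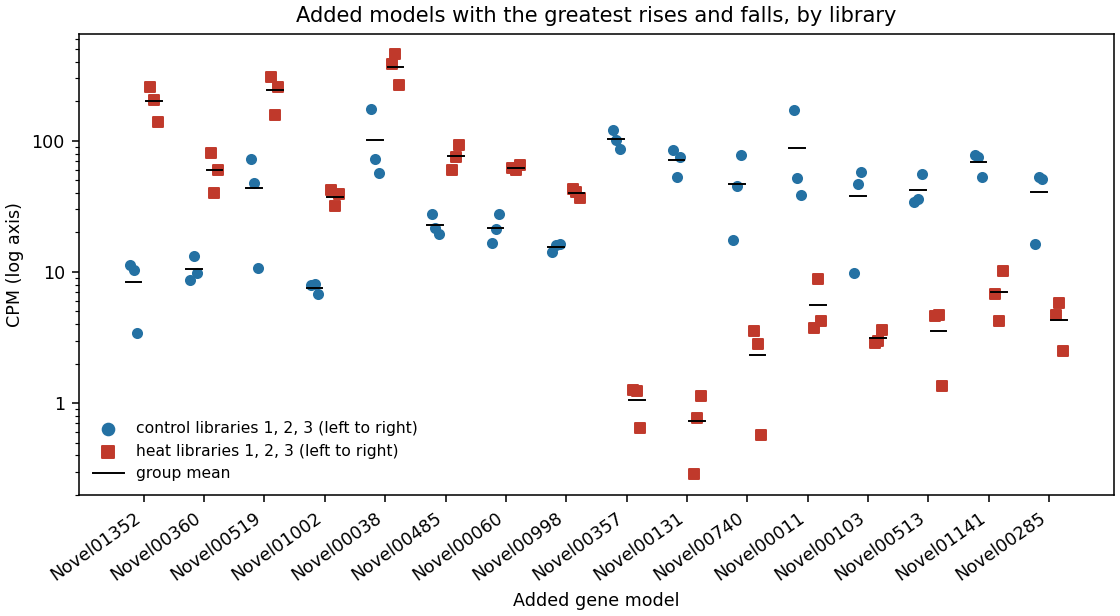
CPM (log axis) in each control library (circles) and heat library (squares) for the 8 models with the greatest called rises, on the left, and the 8 with the greatest called falls, on the right; short lines are group means. No model overlaps between groups, and in Novel00357 and Novel00131 the heat libraries lie between 0.286 and 1.27 CPM.

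The greatest falls were those of 2 small models with 2 exons, which were nearly lost in heat. Novel00357 has exons at 369228 to 369562 and 366905 to 367319 on the minus strand of NW_018931558.1, parted by an intron of 1908 bp. It had 121, 102 and 87.3 CPM in control libraries 1 to 3 and 1.27, 1.23 and 0.646 CPM in heat libraries 1 to 3, or 6020, 5069 and 3330 reads against 71, 61 and 35. Its mean was 98.9-fold lower in heat (log2 change -6.62, SE 0.32, adjusted p = 0.000277). Novel00131 has a first exon of 47 bp and a last exon of 399 bp on the plus strand of NW_018931425.1, from 968856 to 969970. It went from 85.1, 52.6 and 75.3 CPM to 0.286, 0.766 and 1.13 CPM, 97.8-fold lower in the mean (log2 change -6.61, SE 0.51, adjusted p = 0.000526). Both models thus lost nearly all of their signal in each of the 3 heat libraries, and every fit without 1 library kept the calls. With every heat value below 20 CPM, they met the level rule through control.

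The other models with large falls kept more of their level or varied more among control libraries. Novel00740, with exons of 656 and 80 bp on NW_018932252.1 from 78941 to 80070, had 17.6, 45.6 and 78.2 CPM in control and 3.55, 2.84 and 0.572 CPM in heat (log2 change -4.34, SE 0.79, adjusted p = 0.00918). Novel00011, with exons of 167 and 371 bp on NW_018931390.1 from 2308981 to 2310027, had 172, 52.0 and 38.5 CPM in control and 3.77, 8.91 and 4.22 CPM in heat (log2 change -3.96, SE 0.68, adjusted p = 0.00743). Control library 1 was the lowest control in Novel00740 and the highest in Novel00011, so the order of control libraries differed between these models. Novel00103, with exons of 821 and 1117 bp, had 9.80, 46.9 and 57.4 CPM in control and 2.89, 2.98 and 3.60 CPM in heat (log2 change -3.59, SE 0.62, adjusted p = 0.00755). Novel00285, of 3 exons, showed a like order, with 16.4, 53.2 and 51.5 CPM against 4.66, 5.81 and 2.51 CPM (log2 change -3.22, SE 0.52, adjusted p = 0.00605). In both, control library 1 stood apart from the other controls but above every heat library. Novel00740, Novel00011, Novel00103 and Novel00285 had every heat value below 20 CPM, so they too met the level rule through control.

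Novel00513 and Novel01141 fell with less spread among controls. Novel00513, with exons of 63 and 632 bp around an intron of 62 bp on NW_018931765.1 from 255213 to 255969, went from 34.2, 35.8 and 55.6 CPM to 4.61, 4.72 and 1.35 CPM (log2 change -3.56, SE 0.49, adjusted p = 0.00345). Novel01141, with 4 exons of 318, 127, 1781 and 131 bp on NW_018932967.1 from 237693 to 241093, went from 78.2, 75.1 and 52.7 CPM to 6.84, 4.19 and 10.2 CPM (log2 change -3.28, SE 0.35, adjusted p = 0.00142). The mean of Novel00513 was 11.8-fold lower and that of Novel01141 9.72-fold lower in heat. Both had every heat value below 20 CPM and so met the level rule through control.

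The greatest rise was that of Novel01352, a minus-strand model on NW_018933625.1 from 2100 to 9210 with 6 transcripts. One transcript is a single exon over the whole 7111 bp, and the other 5 have 2 or 3 exons, so that all 4 introns of the model are covered by an exon of another transcript. Its level was 11.4, 10.3 and 3.41 CPM in control libraries 1 to 3 and 256, 205 and 139 CPM in heat libraries 1 to 3. With every control value below 20 CPM, it met the level rule through heat. Each heat value was more than 10 times each control value, the mean was 23.9-fold higher (log2 change 4.58, SE 0.50, adjusted p = 0.00153), and the call held without any single library.

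**Figure D4:**
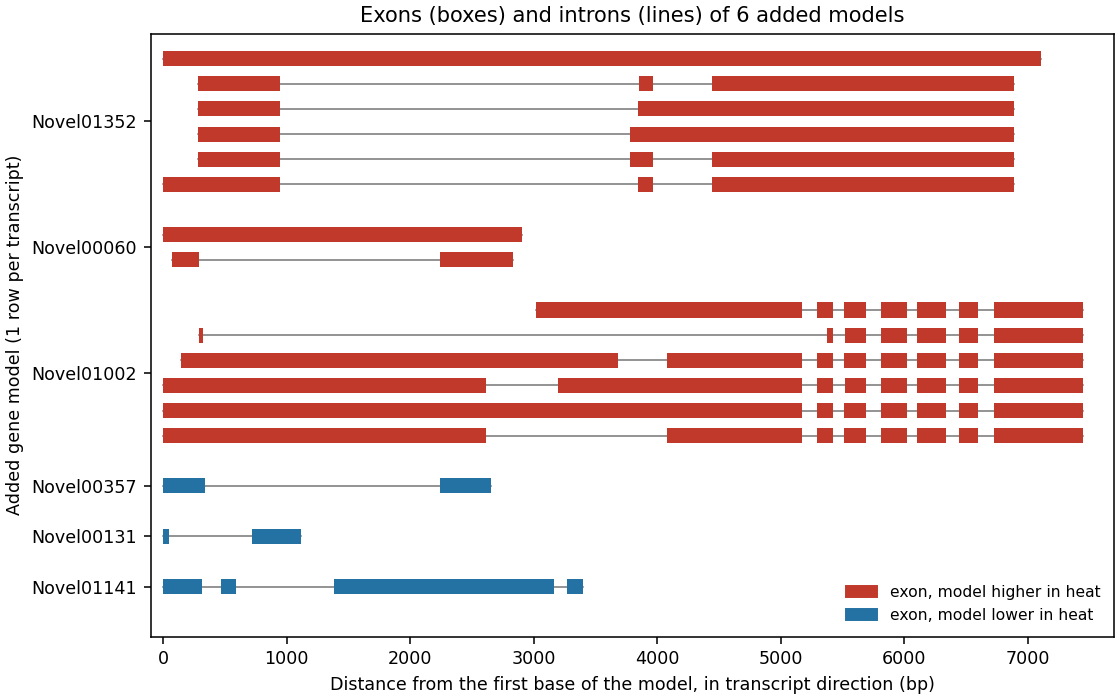
Exons (boxes) and introns (lines) of 3 models higher in heat and 3 lower in heat, with 1 row per transcript, plotted by distance from the first base in transcript direction (bp). Novel01352 and Novel00060 each hold an unspliced transcript over their full length beside spliced ones, while Novel00357, Novel00131 and Novel01141 have 1 spliced transcript each. The models shown are examples, not chosen by a rule, and others differ. Novel00998, also higher, is a single exon, and Novel00311 and Novel00914, both lower, have several transcripts.

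The greatest rises also included both models with many transcripts and models with few. Novel00360, with 14 transcripts, the most of the 132, and 12 of its 19 introns covered, lies on NW_018931564.1 from 491166 to 501807. It went from 8.75, 13.2 and 9.80 CPM to 80.1, 40.1 and 59.5 CPM (log2 change 2.50, SE 0.29, adjusted p = 0.00191). Novel01002, with 6 transcripts of 7 or 8 exons on NW_018932806.1 from 389402 to 396850, went from 7.95, 8.04 and 6.79 CPM to 42.0, 31.6 and 39.0 CPM (log2 change 2.31, SE 0.17, adjusted p = 0.000480). Both means were below 20 CPM in control, so these models met the level rule through heat. Novel00485, with 5 transcripts, went from 27.8, 21.6 and 19.4 CPM to 59.4, 75.3 and 93.5 CPM (log2 change 1.73, SE 0.23, adjusted p = 0.00279). Novel00060, which has an unspliced transcript of 2903 bp and a spliced one with an intron of 1956 bp, went from 16.6, 21.3 and 27.4 CPM to 61.7, 59.8 and 65.8 CPM (log2 change 1.52, SE 0.20, adjusted p = 0.00294). In these 4 models the groups lay well apart, and their calls held without any single library.

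The risers of highest mean CPM had a wider spread. Novel00038, with 2 transcripts of 2 exons on NW_018931396.1 from 189089 to 190688, had 175, 73.1 and 57.1 CPM in control and 385, 455 and 265 CPM in heat (log2 change 1.86, SE 0.45, adjusted p = 0.0242). Novel00519, with 2 transcripts on NW_018931780.1 from 40062 to 46085, had 73.1, 47.4 and 10.7 CPM in control and 309, 158 and 259 CPM in heat (log2 change 2.47, SE 0.65, adjusted p = 0.0316). The Novel00038 call ended without control library 2 or heat library 1 or 2 (adjusted p = 0.0924, 0.0736 and 0.0668), and that of Novel00519 without control library 2 or heat library 1 or 3 (adjusted p = 0.0984, 0.0966 and 0.0662). Novel00998, a single exon of 2283 bp on NW_018932805.1, was steadier, at 14.1, 16.1 and 16.4 CPM in control and 43.0, 41.0 and 36.8 CPM in heat (log2 change 1.37, SE 0.14, adjusted p = 0.00112). Its control values were all below 20 CPM, so it met the level rule through heat.

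Calls were also counted by structure, with no test of the difference between classes. Over all tested features 11.6% were higher and 13.6% lower. Under library size alone these shares were 31.2% and 7.30%. Without control library 1, 2 or 3 they were 9.34%, 4.19% and 8.83% higher and 11.8%, 6.92% and 11.2% lower. Without heat library 1, 2 or 3 they were 5.40%, 9.15% and 9.04% higher and 7.51%, 11.1% and 12.0% lower. Of the 93 models with several transcripts, 22 were higher and 8 lower, while of the 39 models with 1 transcript 3 were higher and 10 lower. Of the 55 models with a covered intron, 16 were higher and 4 lower, against 9 higher and 14 lower among the other 77. This class was formed after the structures had been seen. A covered intron needs another transcript, so all 39 models with 1 transcript, 3 higher and 10 lower, are among the 77. The splits by transcript number and by covered intron are thus not separate. The median log2 fold change was 0.17 with and -0.04 without a covered intron, and 0.15 with several transcripts and -0.23 with 1 transcript, where all 132 had 0.06. Under library size alone the last median turned to 0.21, with 9 models of 1 transcript higher and 10 lower, while 45 of those with several transcripts were higher and 4 lower. The 77 models without a covered intron then had a median of 0.42, with 25 higher and 12 lower, and the 55 with one had 29 higher and 2 lower. Without control library 2 the models with several transcripts numbered 6 higher and 5 lower, without heat library 1 they numbered 8 and 6, without heat library 3 they numbered 11 and 9, without control library 1 they numbered 14 and 11, and without control library 3 they numbered 13 and 8. Without heat library 2 they numbered 20 and 7. The models with 1 transcript numbered 2 to 4 higher and 10 to 13 lower over the fits without 1 library. The models with a covered intron numbered 8 higher and 7 lower without control library 1, 5 and 2 without control library 2, 7 and 4 without control library 3, 5 and 3 without heat library 1, 15 and 3 without heat library 2, and 6 and 5 without heat library 3. Those without a covered intron numbered 3 and 13 without control library 2 and 5 and 13 without heat library 1. Over all fits without 1 library they numbered 3 to 10 higher and 13 to 17 lower. The classes also differed in models that met the level rule through 1 group. The heat mean was below 20 CPM in 10 of 39 models with 1 transcript and 7 of 93 with several, and in 16 of 77 without a covered intron and 1 of 55 with one. The part of this in the counts was not tested. The merged exons of the lower models had a median of 1478 bp and those of the higher ones 2283 bp. The counts are per model, so which transcript of a model changed was not measured.

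Of the 19 models with 10 or more exons in a transcript, 1 was higher, Novel00360, and 4 were lower, a called share of 26.3% beside 25.2% of all tested features. Under library size alone 6 of the 19 were higher (31.6%) and 2 lower (10.5%), beside 31.2% and 7.30% of all tested features. Novel00578, with up to 18 exons the most of the 132, lies on NW_018931929.1 from 38203 to 58248 and had 18.6, 20.4 and 28.2 CPM in control and 28.4, 24.0 and 29.7 CPM in heat (log2 change 0.29, interval -0.17 to 0.75). Novel00341, with up to 16 exons and 12 transcripts, had 31.9, 34.5 and 27.9 CPM in control and 46.5, 33.4 and 39.7 CPM in heat (log2 change 0.34, interval -0.05 to 0.74). Neither passed. Novel01044, with up to 16 exons on NW_018932836.1 from 490085 to 507756, fell from 68.8, 66.7 and 70.9 CPM to 28.2, 33.6 and 36.0 CPM (log2 change -1.07, SE 0.14, adjusted p = 0.00302). Its control values lay close together, and every heat value was far below them.

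Among the 89 models that did not pass, 9 had an unadjusted p below 0.05, and for 56 the 95% interval of the log2 fold change stayed within a 2-fold change either way. For the other 33 a change of 2-fold or more lay within the interval. In 4 models the interval reached least far from no change. They were named by that rule, so their level values follow from the choice. Novel01624, at the first base of scaffold NW_018949540.1 and up to base 1788, had 50.9 to 52.0 CPM in control and 47.2 to 54.4 CPM in heat (log2 change -0.03, interval -0.32 to 0.26). Under library size alone, where the median of all features moved to 0.47, it was called higher (log2 change 0.43, adjusted p = 0.0435). Novel00695, which has a spliced and an unspliced transcript, had 41.1, 39.8 and 40.5 CPM in control and 41.2, 37.1 and 44.4 CPM in heat (interval -0.29 to 0.32). The others were Novel01174, with 48.2 to 53.2 CPM in control and 44.4 to 54.0 CPM in heat, and Novel00628, with 42.0 to 48.4 and 43.7 to 52.5 CPM. Under library size alone Novel00628 was called higher too (log2 change 0.52, adjusted p = 0.0314). Novel00695 and Novel01174 did not pass there (adjusted p = 0.0537 and 0.0897).

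Some of the 132 models lay near each other. Novel01174 lay 55662 bp from Novel01175 on the same strand of NW_018933020.1. Novel01175 had 26.8, 29.9 and 27.8 CPM in control and 35.4, 38.6 and 39.0 CPM in heat (log2 change 0.42, SE 0.12, adjusted p = 0.0462), and that call was lost in each of the 6 fits without 1 library (adjusted p from 0.0825 to 0.123). The difference between the responses of this pair was not tested. The closest pair, Novel00182 and Novel00183, lay 15740 bp apart on the minus strand of NW_018931449.1, and neither passed, with log2 fold changes of -0.18 and -0.26. In 9 cases a pair of the 132 models lay on 1 scaffold.

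Libraries of a group stood far apart in some of these models. The median SD of log2(CPM + 1) was 0.26 among control and 0.30 among heat libraries for the 132 models, and 0.18 and 0.21 for annotated genes of at least 20 CPM. The highest control library exceeded the lowest more than 3-fold in 20 of the 132 models (15.2%) and in 4.17% of the annotated genes. In heat this held for 15 models (11.4%) and 2.62% of the annotated genes. In 103 models neither group had such a range. Of the 20 models, control library 1 was lowest in 15 and control library 3 highest in 13, and 10 had 1 transcript. Control library 1 was the lowest control in 52.3% of all 132 models and in 45.1% of the annotated genes. The part of this library in the ranges was not tested.

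**Figure D5:**
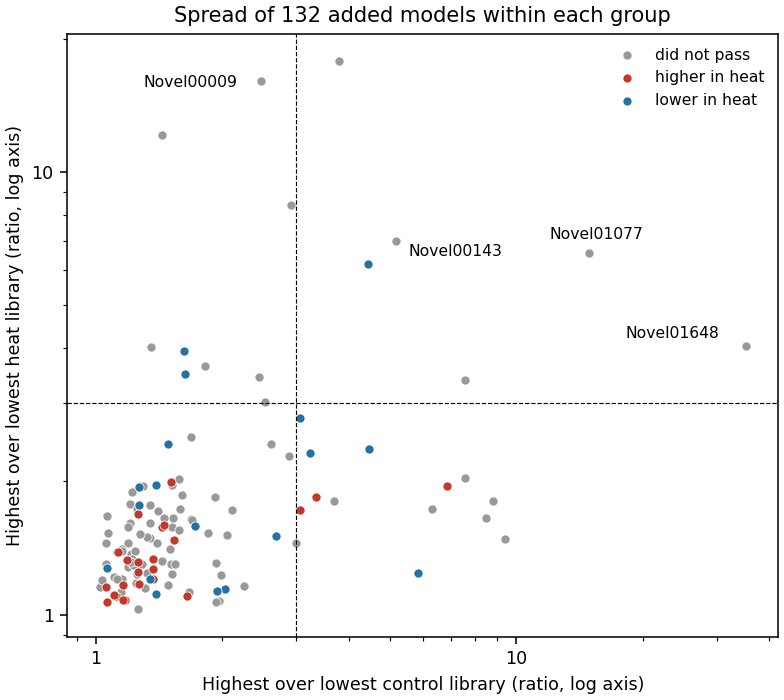
Ratio of the highest to the lowest control library against the same ratio in heat (both log axes) for each of the 132 models, coloured by the call, with dashed lines at 3. Most points lie below 3 on both axes, and the labelled models Novel01648, Novel01077, Novel00143 and Novel00009 lie outside.

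The widest ranges were seen in models of few exons. Novel01648, with 3 exons on NW_018957275.1 from 95 to 1093, had 114, 3.25 and 22.1 CPM in control and 101, 98.8 and 25.0 CPM in heat, a 35.2-fold range among controls. Novel00009, with 2 exons on NW_018931390.1 from 2239875 to 2241000, had 219.6, 96.9 and 89.1 CPM in control and 27.2, 18.9 and 304 CPM in heat. Without heat library 3 it was lower in heat (log2 change -2.55, adjusted p = 0.0177), where all libraries gave -0.20 (adjusted p = 0.902). Novel00009 lay 67980 bp from Novel00011 on the same strand, and Novel00011, unlike it, was low in all heat libraries. Novel01077 and Novel01078 lay 21459 bp apart on opposite strands of NW_018932882.1. Novel01077 had 18.6, 123 and 276 CPM in control and 49.5, 15.2 and 99.9 CPM in heat. Novel01078 had 41.0, 138 and 309.5 CPM in control and 176, 59.8 and 202 CPM in heat. Control library 3 was highest and control library 1 lowest in both, and heat library 3 highest and heat library 2 lowest in both, and neither passed the test.

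Models with a wide range within a group were found among both the called and the uncalled. Of the 20 with a control range over 3-fold, 5 were lower, 3 higher and 12 did not pass, and of the 15 with such a range in heat, 3 were lower and 12 did not pass. Over all 132 models 18 were lower and 25 higher, and over all tested features 13.6% and 11.6%. Of the 89 models that did not pass, 7 had a difference of at least 2-fold, and all 7 had a range over 3-fold within a group. Novel00143, with 2 exons on NW_018931429.1 from 1427501 to 1429049, had 32.6, 106 and 169 CPM in control and 159, 619 and 88.6 CPM in heat (log2 change 1.49, interval -0.45 to 3.43). Novel01209, named after its values were seen, had 9.96, 33.4 and 93.6 CPM in control and 7.87, 9.56 and 11.7 CPM in heat (log2 change -2.23, adjusted p = 0.0602). Novel00573, also named after its values were seen, had 30.1, 73.7 and 114 CPM in control and 1.62, 29.0 and 22.2 CPM in heat (log2 change -2.04, adjusted p = 0.150). Its groups did not overlap, but 1 heat library lay far below the other 2.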

How the data were processed

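RNA was sequenced in 6 spinach libraries, 3 per temperature regime, grouped by the labels. The deposited read counts per gene are whole numbers that the authors did not normalize, and the deposited FPKM values are the authors' counts per kilobase and per M counts. Per the submitters' processing notes, the tools included HISAT2 2.0.4, HTSeq 0.9.1 and DESeq 1.18.0, whose roles are not stated. Not given in the sources used here were the genome build, the assembly of the models, strand use and the handling of multiply aligned reads. The deposited exon file gave positions, counted from 1.

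Members, classes and tests were chosen with earlier results of these data known. Counts were tested with edgeR 4.0.16 (R 4.3.3), with TMM scaling, its filter on low counts, group as the only term, two-sided, and Benjamini-Hochberg adjustment over all tested features at 0.05. Log2 fold changes are heat minus control, with SE and 95% intervals from the same fit. CPM values use the median-of-ratios scale. Alternatives used DESeq2 1.42.0, limma 3.58.1 (voom, and log2(FPKM + 1) or log2(FPKM + 0.1)), other scalings, no filter, a replicate term, other level limits and leaving out each library. Named models were those with the highest level, the largest rises and falls without overlap, the intervals that reached least far from no change, the values nearest the limit, the widest ranges, the most exons or transcripts, and the nearest pairs.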

Additional observations from a re-analysis of the deposited data

How the results depend on the processing

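Of the 132 models, 25 were higher and 18 lower in heat. DESeq2 called 27 and 21, limma-voom and edgeR with median-of-ratios scaling 25 and 18 each, and edgeR without a filter 20 and 18. All tested features had 11.6% higher and 13.6% lower in the chosen fit and 14.1% and 16.3% with DESeq2. They had 11.5% and 14.1% with limma-voom, 11.5% and 13.7% with median-of-ratios scaling, and 8.73% and 10.5% without a filter. Under library size alone 54 were higher and 14 lower, with limma on log2(FPKM + 1) 52 and 14, and on log2(FPKM + 0.1) 53 and 15. The median log2 fold change of the 132 then moved from 0.06 to 0.52, 0.51 and 0.53. Over all tested features these 3 settings gave 31.2%, 32.0% and 32.5% higher and 7.30%, 7.74% and 7.82% lower. They share scaling by library totals. Leaving out 1 library gave 8 to 24 higher and 15 to 24 lower models, a median of 0.01 to 0.11, and 4.19% to 9.34% higher and 6.92% to 12.0% lower over all features. A limit of 10 CPM kept 250 models, 41 higher and 30 lower, a limit of 50 CPM 43 models, 5 and 7, and 20 CPM in both groups 97 models, 12 and 7. Novel01624, level in the chosen fit, was higher under library size alone (0.43) and with limma on log2(FPKM + 1) (0.42) and log2(FPKM + 0.1) (0.43). Further calls gained included Novel00628 in the same settings (0.52, 0.48 and 0.51) and Novel00033 under library size alone (0.61). Over 39 named models and 546 values under alternatives, 480 kept direction and side of the threshold, 20 lost the call and 14 gained one. The sign turned in 3 that were then called and in 29, from 11 models, that were called in neither fit. The cause was not tested.

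Same-numbered libraries did not pair (correlations of their deviations -0.28 to -0.11), and with the replicate number as a block 13 models were higher and 18 lower, with 5.20% and 7.84% of all features.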
